A study of Allium sativum with 18 samples.

Results

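Across the 57561 genes measured in garlic bulbs, 97 genes fell at least 8-fold on the log2(FPKM + 0.5) scale when the cloves began to enlarge, in each of the 3 varieties examined. These 97 genes, 0.169% of all, are described here. They were chosen by the measured values themselves. In Chalingzipisuan, in Ershuizao and in Yuanjiangyangsuan the mean of log2(FPKM + 0.5) under enlarging growth had to be lower than the mean before enlargement by 3 or more, and each enlarging library had to lie below each library before enlargement. FPKM is the number of sequenced fragments of a gene per kilobase of its length and relative to the library total, and 0.5 was added so that values of 0 could be placed on the log scale. The mirrored rule, for genes that rose as steeply in all 3 varieties, was met by 14 genes.

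The libraries came from parts of bulbs of plants set in the field in October 2019. Bulbs that had not started to enlarge were taken in February 2020 and bulbs under enlarging growth in March 2020, from 3 individuals per variety and stage, which gave 18 libraries. No treatment or mutation is described, and the groups differ only in variety and in stage. The stage cannot be told apart from the month of sampling. The deposited labels name the tissue as leaf but the stage as that of a bulb, and the description as bulbs was followed. No list of marker genes was at hand to check the tissue.

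A garlic bulb is a ring of cloves around the stem. Each clove is an axillary bud whose storage leaf thickens as it fills with reserve carbohydrate, and this growth starts under the lengthening days of spring. Before enlargement the young bulb consists largely of leaf bases, meristems and small buds. Because the RNA was taken from whole pieces of tissue, a lower FPKM value can come from fewer cells that express a gene or from less RNA per cell, and these cannot be told apart.

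The identifiers of the 97 genes carry no gene name in the files, so that no function is given for any of them. None of the 14 genes that the study's text and captions name by identifier, among them genes related to flowering-time and gibberellin signals, was one of the 97. *Asa2G00253.1* and *Asa2G00503.1*, both called AXR1-like in the study, were counted separately. On the same scale, 8 of these 14 genes had positive differences in all 3 varieties, some as small as 0.04 (*Asa2G00237.1* in Chalingzipisuan). The share of all genes with such differences was not counted. The coding lengths recovered from the FPKM values lay between 165 and 4356 bases with a median of 708, close to the median of 744 among the 31236 genes that passed the filter on low values before enlargement. Before enlargement all 97 genes were detected in all 9 libraries. The rule fixes this, since each library before enlargement had to lie above each enlarging library of its variety. The mean FPKM value of the 97 genes before enlargement ranged from 8.501 to 2563 with a median of 43.2. The median over the genes that passed the filter was 6.0. The rule favours such a difference, because a gene with a low level before enlargement cannot fall far enough on the log scale. These levels are therefore given as a description. Of the 97, 5 genes had a mean below 10, 47 lay between 10 and 50, 22 between 50 and 100, 18 between 100 and 500, and 5 above 500. Under enlarging growth the mean FPKM value over 9 libraries ranged from 0 to 101 with a median of 2.85.

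**Figure D1:**
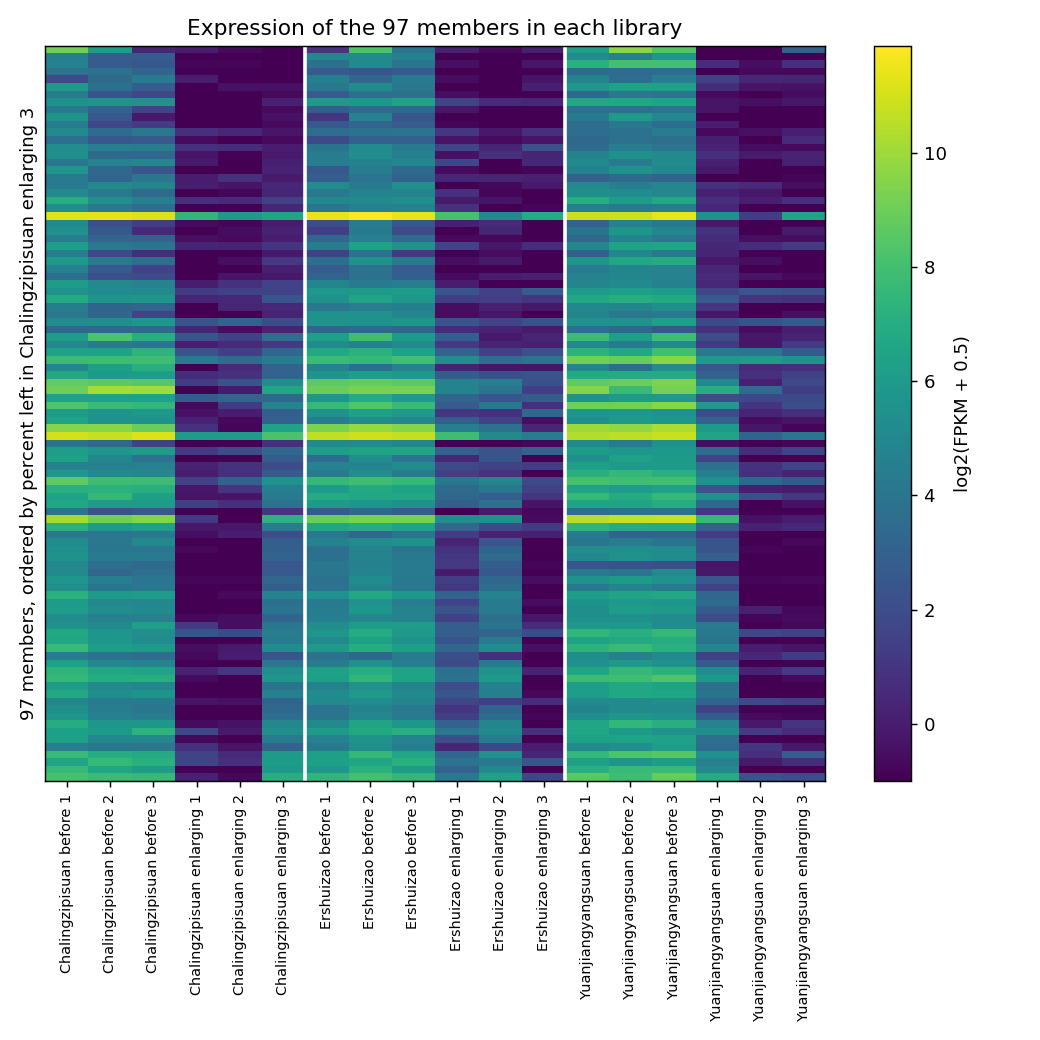
Expression of the 97 genes as log2(FPKM + 0.5), with 1 row per gene, ordered by the percentage left in enlarging replicate 3 of Chalingzipisuan, and 1 column per library. Within each of the 3 varieties the left columns, before enlargement, are brighter than the right columns, under enlarging growth, and replicate 3 of Chalingzipisuan is the brightest of its enlarging columns toward the foot of the plot.

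As a group the genes held a far smaller share of the transcripts once the cloves enlarged. Their summed FPKM value before enlargement lay between 9897 and 17564, which was 1.00% to 1.54% of the FPKM total of a library. Under enlarging growth the sum was 326, 208 and 1874 in the 3 libraries of Chalingzipisuan, 999.8, 989 and 252.9 in those of Ershuizao, and 1547, 169 and 249 in those of Yuanjiangyangsuan, or 0.0185% to 0.195% of a library. The depth was alike at both stages, with 10340511 to 14117986 fragments on genes per library. The highest enlarging sum was thus well under the lowest sum before enlargement, and the sums within a variety still differed several-fold between individuals. The rule fixes that the sum falls within each variety, so these values are a description.

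At the median the fall was deepest in Yuanjiangyangsuan and shallowest in Ershuizao, a difference that was not tested. The log2 difference between the stages had a median of −4.37 for Chalingzipisuan (range −7.94 to −3.02), −3.77 for Ershuizao (−6.69 to −3.004) and −5.07 for Yuanjiangyangsuan (−8.36 to −3.01). Over all genes tested the medians were −0.04, −0.03 and −0.04. Of the 97 genes, 75 had their deepest fall in Yuanjiangyangsuan, 12 in Chalingzipisuan and 10 in Ershuizao, and 57 had their shallowest fall in Ershuizao. These differences set the choice of the genes, and they are given as a description. In the fit across all genes with limma, a change of more than 2-fold with two-sided P below 0.05 was reached by all 96 genes tested in Chalingzipisuan, where 1 of the 97 did not pass the filter, and by all 97 in both Ershuizao and Yuanjiangyangsuan. By the same criteria, 7.11%, 7.65% and 15.6% of all genes tested were called lower. With P adjusted by Benjamini-Hochberg the counts were 23, 65 and 96, where 0.169%, 2.59% and 14.6% of all genes tested were called lower. The genes had to differ by the rule, so nothing can be read from these counts.

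The number of genes that met the rule depended on single libraries. It was 182 without enlarging replicate 2 of Ershuizao and 61 without enlarging replicate 3 of Ershuizao. It was 192 with 0.1 added in place of 0.5 and 61 with 1 added. The number also depended on the threshold, since 371 genes met a threshold of −2 and 29 met one of −4.

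The most abundant of the 97 genes before enlargement was *Asa3G00378.1*, with a coding length of 318 bases. Its FPKM values before enlargement were 2411, 2609 and 2337 in Chalingzipisuan, 2766, 3748 and 2759 in Ershuizao, and 1856, 1879 and 2705 in Yuanjiangyangsuan. Under enlarging growth they were 175, 60.3 and 95.3 in Chalingzipisuan, 283, 35.4 and 120.2 in Ershuizao, and 49.1, 2.13 and 92.4 in Yuanjiangyangsuan. Even the lowest library before enlargement lay far above the highest one afterwards. The ratios of the stage means were 22.2, 21.2 and 44.8 in the same order, with log2 differences of −4.60, −4.84 and −6.52. This gene also kept the highest mean FPKM value of the 97 under enlarging growth.

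The second most abundant gene, *Asa8G06246.1* (246 bases), showed the same step between the stages and a different one between individuals. Before enlargement it lay at 2075, 1713 and 2382 in Chalingzipisuan, 1589, 1903 and 1647 in Ershuizao, and 1348, 1557 and 1774 in Yuanjiangyangsuan. In enlarging bulbs it lay at 65.8, 65.3 and 289 in Chalingzipisuan, 232, 33.2 and 20.7 in Ershuizao, and 91.0, 8.25 and 16.2 in Yuanjiangyangsuan. A single individual of each variety held most of what remained, and the ratios of the stage means were 14.7, 17.97 and 40.5. It had the second highest mean FPKM value under enlarging growth.

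In *Asa5G00519.1* (537 bases) the split between individuals was wider still. Its FPKM values before enlargement were 1142, 543 and 704 in Chalingzipisuan, 489, 628 and 597 in Ershuizao, and 1440.1, 1725 and 1848 in Yuanjiangyangsuan. Under enlarging growth they were 1.80, 0 and 159.6 in Chalingzipisuan, 39.5, 46.4 and 0.141 in Ershuizao, and 199, 0.280 and 0.511 in Yuanjiangyangsuan. No enlarging library reached the level before, but within a variety the enlarging libraries spanned from near 0 to a sizeable part of the level before. The log2 differences of −7.06, −5.74 and −8.27, which average the libraries on the log scale, are therefore much deeper than the ratios of the stage means, which were 14.8, 19.9 and 25.1.

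The deepest mean fall of all belonged to *Asa1G04159.1* (852 bases). It lay at 746, 769 and 501 before enlargement in Chalingzipisuan, at 648, 949.7 and 750.3 in Ershuizao, and at 1049, 883 and 1231 in Yuanjiangyangsuan. Under enlarging growth it lay at 1.32, 0.0873 and 88.4 in Chalingzipisuan, 22.9, 13.4 and 0.801 in Ershuizao, and 64.6, 0.353 and 0.0806 in Yuanjiangyangsuan. The levels before enlargement ranged from 501 to 1231 over the 9 libraries, while the levels afterwards spread from under 0.1 to 88.4. The log2 differences were −7.18, −6.69 and −8.36.

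*Asa2G00397.1* (321 bases) had the next deepest mean fall after these. Its values before enlargement were 530.1, 1224 and 1080.0 in Chalingzipisuan, 505, 612 and 625 in Ershuizao, and 749.8, 200.3 and 588 in Yuanjiangyangsuan. Under enlarging growth they were 0, 0.463 and 98.9, then 27.5, 14.3 and 2.13, and then 128, 10.8 and 2.14 in the same order of varieties. Replicate 1 of Yuanjiangyangsuan, at 128, came close to the lowest value before enlargement, and the ratio of the stage means was only 10.9 in that variety against 28.5 and 39.7 in the others.

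**Figure D2:**
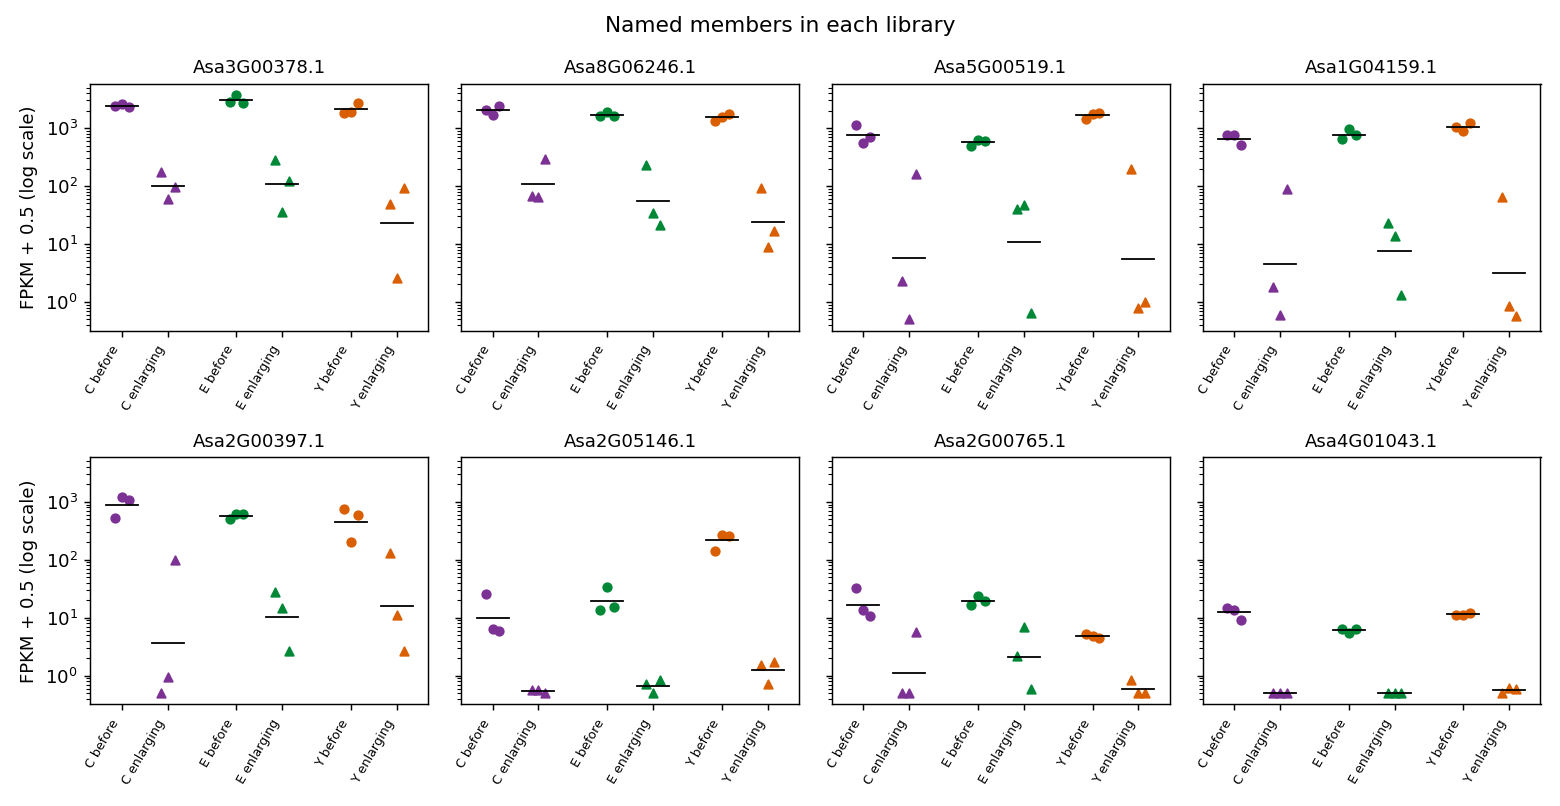
FPKM + 0.5, on a log axis, of 8 of the 97 genes in each library. Circles are libraries before enlargement, triangles are libraries under enlarging growth, C, E and Y stand for Chalingzipisuan, Ershuizao and Yuanjiangyangsuan, and bars are means on the log scale (n = 3). In Asa5G00519.1 and Asa1G04159.1 a single triangle of Chalingzipisuan and of Yuanjiangyangsuan lies far above the others of its group.

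What remained under enlarging growth differed between individuals in a way that most of the 97 genes shared. The FPKM value of each gene in an enlarging library was expressed as a percentage of its mean before enlargement in the same variety. The median over the 97 genes was 0.264%, 0.392% and 11.8% in the 3 libraries of Chalingzipisuan, 7.46%, 5.39% and 0.612% in those of Ershuizao, and 6.97%, 0.215% and 0.558% in those of Yuanjiangyangsuan. Thus 4 libraries kept 5% or more of the earlier level at the median and the other 5 kept less than 1%. Every variety had libraries of both kinds.

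Enlarging replicate 3 of Chalingzipisuan was the highest of its group in 84 of the 97 genes (86.6%), against 41.6% of the 33681 genes that passed the filter in all libraries together. Enlarging replicate 1 of Yuanjiangyangsuan was the highest of its group in 83 (85.6%, against 42.3%), and 78 genes were highest in both. In Ershuizao the highest library was replicate 1 for 43 genes (44.3%, against 32.7%) and replicate 2 for 44 (45.4%, against 35.8%). Ties were counted for the lowest-numbered replicate, so a gene at 0 in all 3 libraries counts for replicate 1. Among the 97 genes these were 4 in Ershuizao, 2 in Yuanjiangyangsuan and 2 in Chalingzipisuan. The shares of all genes include such ties as well. At 0 were 38, 36 and 5 genes in the libraries of Chalingzipisuan, 10, 15 and 33 in those of Ershuizao, and 5, 39 and 29 in those of Yuanjiangyangsuan. Without replicate 3 the median log2 difference in Chalingzipisuan was −5.11, and without replicate 1 that in Yuanjiangyangsuan was −5.89.

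**Figure D3:**
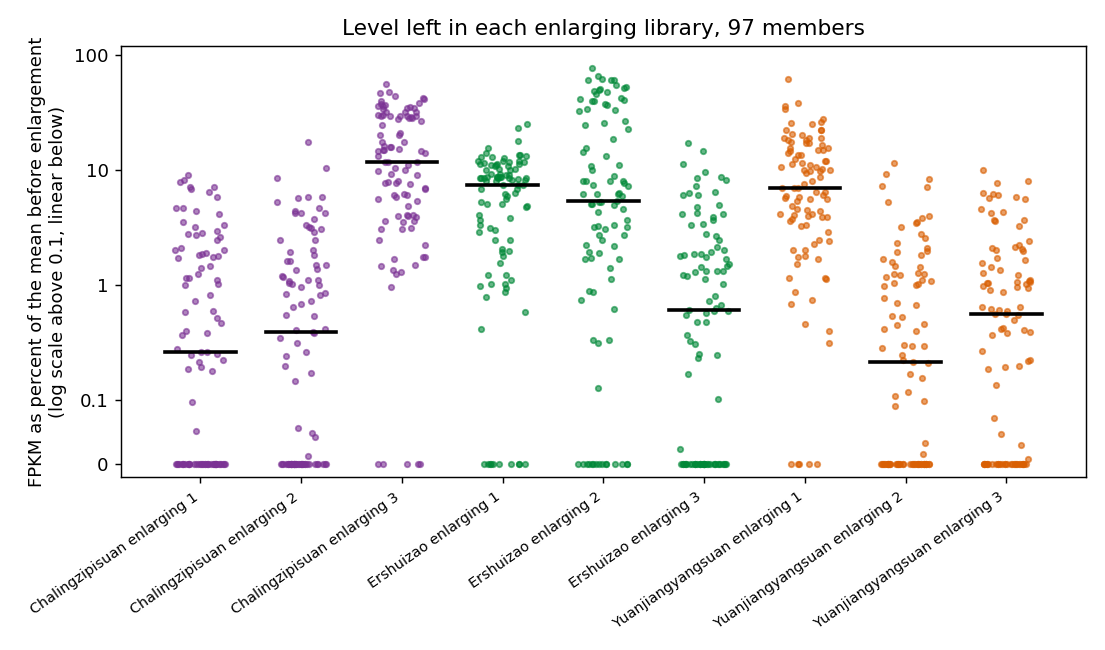
FPKM value in each enlarging library as a percentage of the mean before enlargement in the same variety. Each point is 1 of the 97 genes and each bar is a median, and the axis is logarithmic above 0.1 and linear below. The bars of Chalingzipisuan 3, Ershuizao 1 and 2 and Yuanjiangyangsuan 1 lie between 5.39% and 11.8%, and those of the other 5 libraries lie under 1%.

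The genes that kept most in one of the 4 libraries tended to keep most in the others. Over the 97 genes, Spearman's rho of the percentage left was 0.844 between Chalingzipisuan 3 and Ershuizao 2, 0.792 between Chalingzipisuan 3 and Yuanjiangyangsuan 1, and 0.686 between Ershuizao 2 and Yuanjiangyangsuan 1. Among all 6 pairs of the 4 libraries it lay between 0.54 and 0.844, although they belong to 3 varieties. Among the 10 pairs of the other 5 libraries it lay between 0.567 and 0.731. Between a library of the first kind and one of the second it lay between −0.175 and 0.373. These are correlations across genes, which are not independent replicates. Libraries of 1 variety share their denominator, and values near 0 rest on a few fragments, so that they depend on the length and earlier level of a gene.

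A set of 25 genes stood out in these plots. It was chosen after the values had been seen, as the genes that kept more than 25% in both Chalingzipisuan 3 and Ershuizao 2 and at most 5% in Chalingzipisuan 1 and 2, Ershuizao 3 and Yuanjiangyangsuan 2 and 3. Within the set the percentage left had a median of 33.9% in Chalingzipisuan 3 (quartiles 29.6% and 37.4%), 47.8% in Ershuizao 2 (39.5% and 54.5%), 10.03% in Ershuizao 1 (8.52% and 11.4%) and 15.6% in Yuanjiangyangsuan 1 (11.03% and 19.1%). In the 5 libraries held to at most 5% the medians were 0%, 0%, 0.169%, 0% and 0.0468%, and 12 to 15 of the 25 genes were at 0 in each. All 25 genes kept between 7.43% and 15.5% in Ershuizao 1 and between 7.57% and 61.9% in Yuanjiangyangsuan 1. These libraries have no limit of their own in the choice of the set, but both entered the rule for the 97 genes, and with Ershuizao 2 above 25% the required mean difference of −3 in Ershuizao bounds Ershuizao 1 from above. In the other 72 genes the medians in Chalingzipisuan 3, Ershuizao 2, Ershuizao 1 and Yuanjiangyangsuan 1 were 7.28%, 3.12%, 4.80% and 4.59%. The choice of the set favours higher values within it in Chalingzipisuan 3 and Ershuizao 2, so these contrasts are a description. The threshold of −3 also limits the set. *Asa3G01551.1*, at −3.01 in Ershuizao, is in it, while *Asa4G01399.1*, at −2.99, was not among the 97 genes.

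The longest of the 97 genes, *Asa5G00068.1* with 4356 bases, belongs to this set. Its values rest on 513 to 2256 fragments in the 4 enlarging libraries that kept more and on 11 to 28 in the other 5. It was singled out after its values had been seen. Before enlargement it lay at 201, 73.6 and 64.2 in Chalingzipisuan, 62.2, 129.6 and 78.7 in Ershuizao, and 162, 200.4 and 145 in Yuanjiangyangsuan. In enlarging bulbs it lay at 0.203, 0.444 and 36.1 in Chalingzipisuan, 9.13, 37.7 and 0.209 in Ershuizao, and 32.2, 0.483 and 0.331 in Yuanjiangyangsuan. The enlarging libraries lay in a high and a near-zero group, with no value between 0.483 and 9.13. The choice of the set held 5 of these libraries low and required others to be high. The rule for the 97 genes also limits what the remaining libraries of a variety can keep beside a high one. The split is therefore largely built in and is given as a description.

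*Asa8G04759.1* (753 bases), likewise chosen after its values were seen, kept more of its level in Chalingzipisuan 3 than any other of the 97 genes. It went from 279.9, 218 and 195 to 0.641, 0.0988 and 130.4 in Chalingzipisuan, from 169, 261 and 183 to 17.4, 80.7 and 2.72 in Ershuizao, and from 386, 232 and 459 to 121, 4.39 and 3.83 in Yuanjiangyangsuan. The value left in Chalingzipisuan 3 was 56.4% of the mean before enlargement. The same variety's other individuals kept less than 1%. This gene is also in the set of 25, whose choice holds these individuals to at most 5%, so the contrast is a description.

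Replicates of the earlier stage also differed together. Replicate 1 of Chalingzipisuan was the highest of its group before enlargement in 77 of the 97 genes (79.4%, against 42.2% of the 33681 genes), and replicate 2 of Ershuizao in 68 (70.1%, against 37.6%). All libraries before enlargement entered the choice of the genes, so these values are a description. In the shares of all genes, ties were again counted for the lowest-numbered replicate. Within the set of 25, replicate 1 of Chalingzipisuan exceeded the mean of replicates 2 and 3 by a median factor of 2.30 (quartiles 1.70 and 2.53), and replicate 2 of Ershuizao by a median factor of 1.81 (1.68 and 2.13). Among the other 72 genes these factors were 1.84 (1.05 and 3.54) and 1.32 (0.998 and 1.95), with a wider spread. The median SD of log2(FPKM + 0.5) within groups was 0.53 for the 97 genes before enlargement, against 0.34 for all genes that passed the filter. Under enlarging growth it was 1.32 for all 97 genes, against 0.38 for the 31419 genes that passed the filter in the enlarging libraries. Only 78 of the 97 passed that filter, so the sets are not fully alike.

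**Figure D4:**
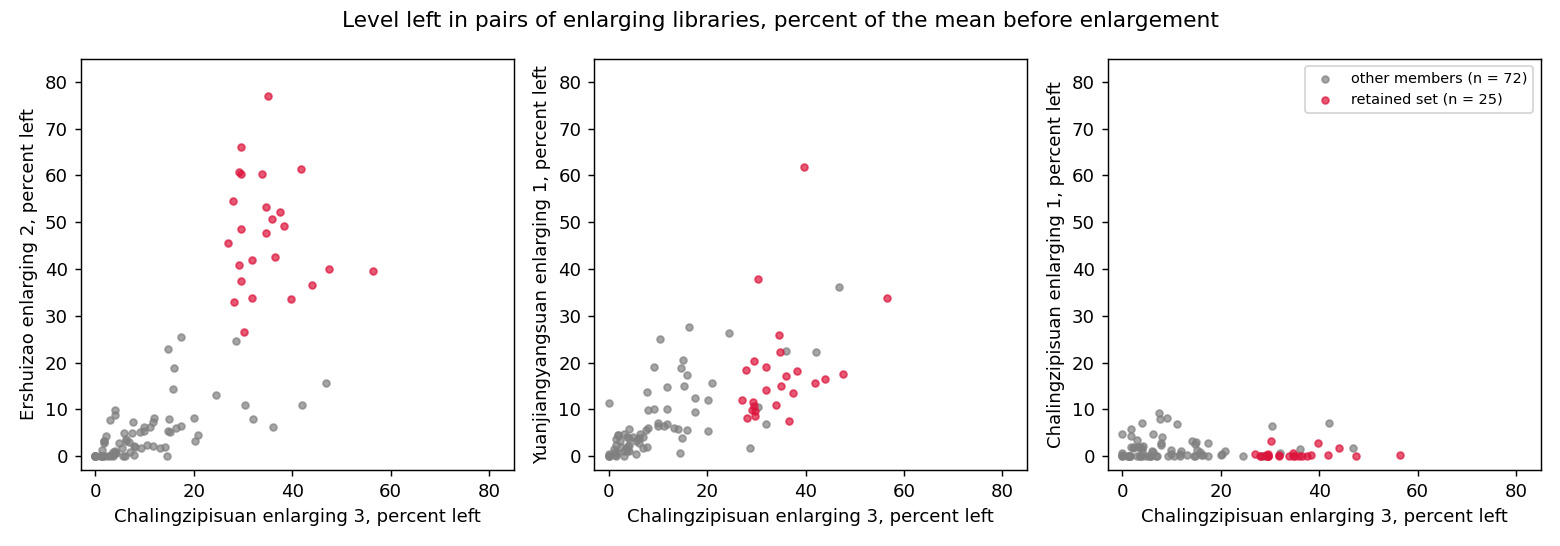
Percentage of the level before enlargement left in enlarging replicate 3 of Chalingzipisuan, on each x axis, against that in 3 other enlarging libraries. Each point is 1 of the 97 genes, with the set of 25 genes in red and the other 72 in grey. The red points lie above 25% for Ershuizao 2, between 7.57% and 61.9% for Yuanjiangyangsuan 1, and near 0 for replicate 1 of the same variety.

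At the other end, 16 of the 97 genes were under 5% of their earlier level in every enlarging library. *Asa5G00207.1* (225 bases), chosen after its values were seen, was the only gene at 0 in all 9 enlarging libraries. Before enlargement it lay at 23.4, 6.21 and 6.199 in Chalingzipisuan, 31.5, 35.7 and 23.7 in Ershuizao, and 36.5, 23.7 and 56.7 in Yuanjiangyangsuan. Against a floor of 3 fragments per library it was at least 11.97-fold lower in Chalingzipisuan, at least 28.8-fold lower in Ershuizao and at least 40.8-fold lower in Yuanjiangyangsuan. These bounds cover counting error only. Of all 97 genes, 4 had 3 or fewer fragments in each enlarging library and 38 were above 0 in all 9.

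*Asa0G00573.1* (624 bases), also picked out after the fact, had the most uneven levels before enlargement. They were 559, 68.5 and 0.813 in Chalingzipisuan, 1.43, 299 and 15.4 in Ershuizao, and 75.8, 805 and 336 in Yuanjiangyangsuan. Afterwards it lay at 0.516, 0.119 and 0, at 0.621, 0.134 and 0.608, and at 0, 0 and 6.93. The groups did not overlap within any variety, but in Chalingzipisuan the lowest library before enlargement, at 0.813, lay close to the highest enlarging one, at 0.516. In Yuanjiangyangsuan the corresponding values were 75.8 and 6.93. In 10 of the 97 genes the SD of log2(FPKM + 0.5) before enlargement was above 1, and in 2 it was above 2.

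The varieties were then compared before enlargement. The rule did not use the contrast between varieties, but it did use these same 9 libraries against the enlarging ones. It also required each gene to be expressed in each variety, which leaves out genes that are silent in one of them. The shares over all genes can include such genes, so they are not a fully like background and the counts are a description. The 9 libraries before enlargement were fitted together with limma, and a gene was called when it differed more than 2-fold with a Benjamini-Hochberg adjusted two-sided P below 0.05. More of the 97 genes were higher in Yuanjiangyangsuan than lower. Against Chalingzipisuan, 18 of the 97 genes were called, of which 16 were higher and 2 lower in Yuanjiangyangsuan, where 24.3% of all 31236 genes tested were called, 9.7% higher and 14.6% lower. Against Ershuizao, 20 were called, 18 higher and 2 lower, where 26.1% of all genes were called, 9.38% higher and 16.8% lower. The median difference of the 97 genes was 0.66 in both contrasts, against −0.01 and −0.02 over all genes tested, and 75 and 76 of the 97 differences were positive.

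Among all genes the lower calls were the more frequent. Both contrasts use the same 3 libraries of Yuanjiangyangsuan. The share of the 97 genes called in either direction was below that of all genes, at 18.6% against 24.3% for Chalingzipisuan and 20.6% against 26.1% for Ershuizao, but this order turned with single libraries. Without replicate 1 of Chalingzipisuan the shares were 48.5% against 26.8% in the contrast with Chalingzipisuan and 32.0% against 27.1% in that with Ershuizao. Without replicate 2 of Ershuizao, in the contrast with Ershuizao, they were 30.9% against 26.4%, and without replicate 3 of Chalingzipisuan 26.8% against 26.2%. Against Chalingzipisuan the 18 became 47 (44 higher) without replicate 1 of Chalingzipisuan, in which most of the 97 genes were highest. They became 11 without replicate 3 of Yuanjiangyangsuan, where the shares were 11.3% against 19.7% of all genes. Against Ershuizao the 20 became 31 without replicate 1 of Chalingzipisuan and 11 without replicate 1 of Ershuizao (11.3% against 23.1% of all genes). They became 10 without replicate 3 of Ershuizao (10.3% against 22.5%) or of Yuanjiangyangsuan (10.3% against 20.7%). In a fit of all 18 libraries together the counts were 11 and 6, all of them higher.

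Among the genes called, the largest difference in both contrasts was that of *Asa2G05146.1* (1098 bases). Before enlargement it lay at 144, 268 and 261 in Yuanjiangyangsuan, at 25.7, 5.98 and 5.43 in Chalingzipisuan, and at 13.1, 33.8 and 14.8 in Ershuizao. The lowest library of Yuanjiangyangsuan was above the highest of both other varieties. The log2 difference was 4.43 (standard error 0.57, limma adjusted p = 0.000266) against Chalingzipisuan and 3.49 (standard error 0.57, limma adjusted p = 0.00116) against Ershuizao, and the call held in each alternative fit and without each library in turn. Under enlarging growth the gene lay at 1.03, 0.205 and 1.25 in Yuanjiangyangsuan, 0.0733, 0.0677 and 0 in Chalingzipisuan, and 0.212, 0 and 0.345 in Ershuizao.

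The gene farthest the other way was *Asa2G00765.1* (2436 bases), one of the set of 25. Before enlargement it lay at 4.79, 4.26 and 3.89 in Yuanjiangyangsuan, against 32.1, 12.9 and 10.2 in Chalingzipisuan and 15.8, 23.7 and 18.9 in Ershuizao. All 3 libraries of Yuanjiangyangsuan were below all 6 others. The log2 difference was −1.80 (standard error 0.37, limma adjusted p = 0.00438) against Chalingzipisuan and −2.04 (standard error 0.37, limma adjusted p = 0.00205) against Ershuizao. In the fit of all 18 libraries neither was called (adjusted p = 0.139 and 0.0885). Under enlarging growth it lay at 0.348, 0 and 0 in Yuanjiangyangsuan, 0, 0 and 5.17 in Chalingzipisuan, and 1.69, 6.40 and 0.0934 in Ershuizao.

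Between Ershuizao and Chalingzipisuan 1 of the 97 genes was called before enlargement, where 1.82% of all genes tested were called, 1.43% higher and 0.394% lower in Ershuizao. The gene was *Asa4G01043.1* (693 bases), at 5.86, 5.03 and 5.87 in Ershuizao and 14.2, 13.2 and 8.78 in Chalingzipisuan, a log2 difference of −1.02 (standard error 0.20, limma adjusted p = 0.0356). The call was lost without any single library except replicate 3 of Chalingzipisuan. With the replicate number as a block it was not called either (adjusted p = 0.102), nor with limma voom on the recovered fragments (adjusted p = 0.0756). At an unadjusted P under 0.05, 6 of the 97 genes were called, where 5.63% of all genes tested were called. In Yuanjiangyangsuan the gene lay at 10.6, 10.7 and 11.7. In enlarging bulbs it was at 0 in all libraries of Chalingzipisuan and Ershuizao, at least 37.3-fold and 16.4-fold lower, and at 0, 0.108 and 0.0991 in Yuanjiangyangsuan.

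**Figure D5:**
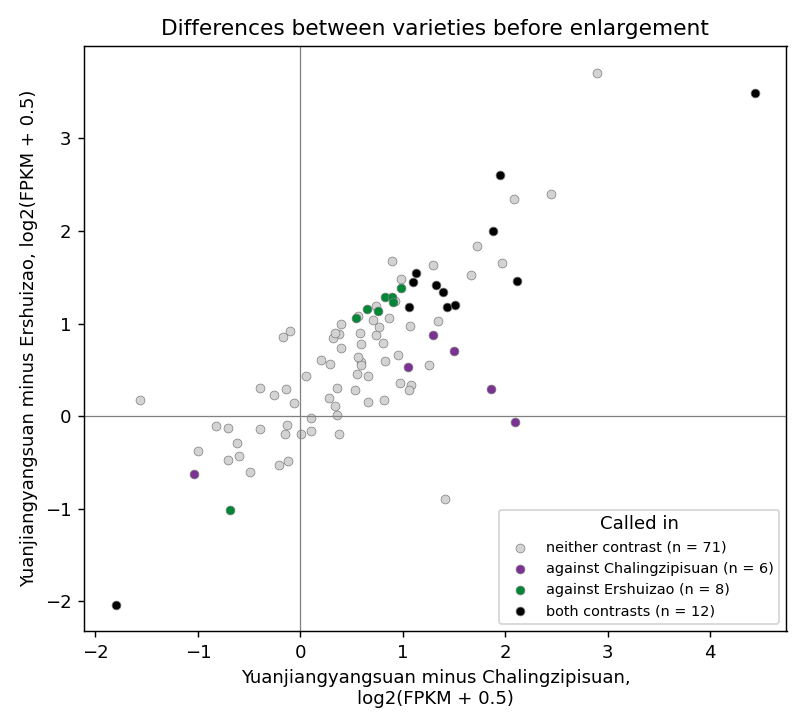
Difference between varieties before enlargement in log2(FPKM + 0.5), Yuanjiangyangsuan minus Chalingzipisuan on the x axis and Yuanjiangyangsuan minus Ershuizao on the y axis. Each point is 1 of the 97 genes, coloured by the contrasts in which it was called, and both axes share the libraries of Yuanjiangyangsuan. Most points lie right of and above 0, with Asa2G05146.1 at the upper right and Asa2G00765.1 at the lower left.

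By the digit after Asa in their identifiers, which is taken here as a label only, the 97 genes were spread over all 9 digits. There were 18 each with the digits 2 and 5, 15 with 8, 10 with 3, 8 with 6, and 7 each with 0, 1, 4 and 7. Of the genes that carry a digit, the share ran from 0.0903% (digit 7) to 0.294% (digit 5), beside 0.169% of all genes. Among them 4 pairs carried neighbouring numbers. The pair with the deepest mean fall was *Asa5G02197.1* and *Asa5G02198.1*, both 651 bases long. The first lay at 323, 204 and 181 before enlargement in Chalingzipisuan, 199.99, 330.2 and 201 in Ershuizao, and 516, 551 and 755 in Yuanjiangyangsuan. The second lay at 446, 412 and 364, at 409, 458 and 396, and at 428, 508 and 649. Before enlargement the first gene exceeded its level in Chalingzipisuan in the libraries of Yuanjiangyangsuan, with a log2 difference of 1.39 (adjusted p = 0.00359 by limma, standard error 0.27), and the second was not called. As genes of equal length and neighbouring number they may be copies that share reads, which was not tested, so their separate values are uncertain.

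Under enlarging growth the first gene of this pair lay at 0.124, 1.94 and 27.8 in Chalingzipisuan, 6.07, 17.9 and 1.16 in Ershuizao, and 61.8, 1.501 and 3.69 in Yuanjiangyangsuan. The second lay at 2.10, 4.57 and 40.5, at 26.9, 22.4 and 4.31, and at 33.8, 0.577 and 3.27. Both were highest in replicate 3 of Chalingzipisuan and replicate 1 of Yuanjiangyangsuan. The log2 differences between the stages were −6.03, −5.34 and −6.22 for the first and −5.64, −4.86 and −6.65 for the second.

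The other pair examined, *Asa8G01893.1* (582 bases) and *Asa8G01894.1* (543 bases), belonged to the set of 25. The first went from 204, 126 and 115 to 2.63, 1.02 and 65.1 in Chalingzipisuan, from 80.2, 193 and 96.4 to 9.19, 45.0 and 0.782 in Ershuizao, and from 181, 302 and 356 to 45.9, 1.16 and 5.90 in Yuanjiangyangsuan. The second went from 126, 54.7 and 55.0 to 0.148, 0.274 and 30.1, from 32.9, 90.9 and 55.5 to 7.71, 29.5 and 0, and from 96.4, 182 and 141 to 25.5, 0.415 and 1.39. Both genes were highest in replicate 3 of Chalingzipisuan, replicate 2 of Ershuizao and replicate 1 of Yuanjiangyangsuan under enlarging growth. Of the 186 other genes whose number is next to that of one of the 97, the share called lower was 13.4% (112 tested) for Chalingzipisuan, 14.04% (114 tested) for Ershuizao and 19.8% (106 tested) for Yuanjiangyangsuan, beside the 7.11%, 7.65% and 15.6% of all genes tested given above.

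The threshold separated genes with nearly equal values. Just inside lay *Asa6G04620.1*, with differences of −3.61, −3.004 and −4.08, and *Asa3G01551.1*, with −4.79, −3.01 and −5.26. In Ershuizao the first went from 6.63, 14.7 and 8.06 to 0.807, 0.760 and 0.592, and the second from 19.9, 45.1 and 21.6 to 2.51, 19.1 and 0.171. Just outside lay *Asa7G05113.1*, with −2.99 in Chalingzipisuan, where it went from 10.5, 3.90 and 2.63 to 0, 0.106 and 0.498. *Asa4G01399.1* reached −2.99 in Ershuizao, where it went from 12.7, 25.8 and 15.9 to 1.41, 8.80 and 0.144. The last of these showed the same high value in Ershuizao 2 as the set of 25.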

How the data were processed

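Total RNA of parts of bulbs was sequenced as paired-end libraries. The authors trimmed the reads, aligned them with the garlic reference genome using HISAT2 and deposited unpooled FPKM values for each library. The program that counted fragments is not given in the sources used here, and neither is its setting for strand. No column had to be left out.

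Fragments were recovered from the deposited FPKM values, since the values of a gene are whole multiples of 1 step. Each of the 39933 genes detected in 2 or more libraries was resolved (tolerance 0.003 of a fragment), and 94.3% of the recovered lengths were multiples of 3. Per library, 10340511 to 14117986 fragments lay on genes, and a count of 0 allows up to 3 fragments.

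The members, gene lists and tests were chosen with earlier results of these data known. limma 3.58.1 (R 4.3.3; trend and robust moderation) was fitted on log2(FPKM + 0.5) to genes reaching an FPKM of 0.5 in 3 or more libraries of the fit, within a variety for the stages and over the 9 libraries before enlargement for the varieties, with no replicate block. The fit was tested on simulated data. Python 3.11.15 (numpy 2.4.6, pandas 2.3.3, matplotlib 3.10.9) was used for tables and plots. Named were the 3 genes most abundant before enlargement, the 3 with the deepest mean fall, the 2 with most left, the extremes among genes called between varieties, 2 genes on either side of the threshold and neighbouring numbers, at most 4 genes. As 4 pairs tied, the 2 pairs with the deepest mean fall were taken. Other named genes are marked as chosen later. The alternatives were a pseudocount of 0.1 or 1, thresholds of −2 and −4, median-ratio scaling, quantile normalization, other filters, the replicate number as a block, another moderation, 1 fit of all 18 libraries, unadjusted or adjusted P, and each library left out, and limma voom on recovered fragments, which was chosen after seeing the data. Replicates are individuals according to the study's methods.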

Additional observations from a re-analysis of the deposited data

How the results depend on the processing

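The number of genes that met the rule was 97, and 192, 61, 371 and 29 with a pseudocount of 0.1, a pseudocount of 1, a threshold of −2 and a threshold of −4. With each library left out it ranged from 61 to 182. Median-ratio scaling gave 87 and quantile normalization 100, and neither moved the median log2 difference of all genes by more than 0.1. Genes of the 97 called lower in Chalingzipisuan were 23 at adjusted P in place of 96, and those in Ershuizao were 62 to 96 with libraries left out. The 62 were of 77 genes tested, since without a library before enlargement the other 20 no longer passed the filter. Of all genes tested, 5.15% to 9.85% were called lower in Ershuizao with libraries left out. Between varieties before enlargement, the genes called were 11, 6 and 2 in a fit of all 18 libraries, in place of 18, 20 and 1 for Yuanjiangyangsuan against Chalingzipisuan, Yuanjiangyangsuan against Ershuizao and Ershuizao against Chalingzipisuan. With each library left out these ranged from 11 to 47, from 10 to 31 and from 0 to 4. For the last contrast a pseudocount of 1 gave 0 and unadjusted P gave 6. The cause of these changes was not tested. The fit of 18 libraries estimates a single spread per gene from both stages, and that of the 97 genes was wider under enlarging growth.

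Same-numbered libraries of both stages did not deviate together (correlations from −0.252 to 0.141, and from −0.273 to 0.0907 between varieties), so the numbers were not taken to pair them. With the replicate block 96, 97 and 97 genes were called between the stages, and 19, 15 and 1 between varieties. With limma voom on recovered fragments, chosen after seeing the data, these were 92, 95 and 96, and 19, 19 and 1. In the contrast of Ershuizao with Chalingzipisuan the 1 gene called was higher in Ershuizao in both of these fits and was another than that called without them, so 0 genes were shared. Calls at low values rest on few fragments: 78 of the 97 genes passed the filter under enlarging growth.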
